A study of Mus musculus with 4 samples.

Results

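Genes whose symbols begin with Spata, for spermatogenesis associated, or Tex, for testis expressed, were followed through mouse testis development. An entry was a member when its symbol was Spata or Tex followed by a number alone, and Tex12, Tex15 and Spata16 were left out by that rule. This gave 44 of the 112302 deposited entries, 20 named Spata and 24 named Tex. The rule uses no measured value, though it was set with earlier results of these data known.

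RNA sequencing covered 4 testis libraries of BALB/C mice. There was 1 from embryos of day 14 (E14), 1 from embryos of day 18 (E18), and 1 each from mice of 3 weeks and of 6 months post-natal age. The stages differ in age alone by their labels. All 4 share the strain, RNA purchased from a supplier, depletion of ribosomal RNA followed by selection of polyadenylated RNA, added ERCC spike-in RNA and a directional library kit. No treatment, mutation or transgene is named in the labels. The number of animals behind each RNA was not given in the sources used here. Levels are RPKM, read numbers divided by model length and by library depth, so they can be compared between genes. With 1 library at each stage there is no replicate check and no p-value, and higher and lower describe these libraries.

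Spata and Tex genes were named for where their transcripts were found, and they share neither a protein family nor a function. In the fetal testis germ cells are gonocytes that lie among Sertoli cells and do not enter meiosis. After birth they give rise to spermatogonia, which feed meiotic spermatocytes, round spermatids and finally elongating spermatids that build the sperm head and tail. Members with a known role fall at several of these steps, and some encode proteins used in most cell types.

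The RPKM denominators corresponded to 33952471 to 38903334 reads, at which 3 reads in a model of 1 kb are worth 0.0771 to 0.0884 RPKM. Whole reads were recovered for all 44 members. Sertoli cell markers summed to 9.37, 116, 177 and 169 RPKM from E14 to 6 months, with none of the 8 genes at 0 in any library. Liver markers summed to 296, 57.7, 0.474 and 0.281 RPKM at the same stages, kidney markers to 2.71, 37.3, 1.40 and 0.244, and cartilage markers to 51.0, 0.475, 0.332 and 0.309. Fetal germ cell markers summed to 8.19 RPKM at E18, against 0.794 at E14. The summed Sertoli and germ cell markers were thus lowest in the library labelled E14, while those of liver and cartilage were highest there. Single markers differed, with Sox9 at 4.00, 2.12, 3.08 and 1.49 RPKM from E14 to 6 months and Amh at 0.262, 11.4, 0.478 and 0.218. Epididymis markers summed to 0.0322, 0.287, 47.9 and 0.0197 RPKM, and Leydig cell markers to 8.02, 126, 64.0 and 552. In such bulk RNA, fewer cells of a type and less RNA per cell cannot be told apart.

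Levels of Spata and Tex genes were mostly far higher in the libraries taken after birth. The median member had a level of 0.0898 RPKM in the E14 library, 0.205 in the E18 library, 4.19 in the 3-week library and 14.3 in the 6-month library. Members of at least 1 RPKM numbered 7 in the E14 library, 9 in the E18 library, 37 at 3 weeks and 39 at 6 months, and members of at least 10 RPKM numbered 0, 0, 10 and 25. Of all 112302 entries, 22135, 23658, 33267 and 29669 reached 1 RPKM in the 4 libraries in that order. The summed level of the members was 19.6, 28.6, 856 and 1812 RPKM. No read at all was found for 9 members at E14 and for 4 at E18, namely Spata32, Tex24, Tex36 and Tex37.

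The stage of highest level was 6 months for 29 members, 3 weeks for 13 and E18 for 1, and E14 for none. These counts cover the 43 members that reached 1 RPKM in at least 1 library. Tex28 did not, with 0, 0.0205, 0.0207 and 0.274 RPKM from E14 to 6 months. Of the 43, 67.4% were thus highest at 6 months and 30.2% at 3 weeks. Among 12661 measured entries with the symbol of a protein-coding gene, 25.6% were highest at 6 months, 35.4% at 3 weeks, 24.8% at E18 and 14.3% at E14. Over all 42964 measured entries these shares were 24.4%, 43.9%, 18.9% and 12.8%. By name, 15 of 20 Spata genes and 14 of 23 measured Tex genes were highest at 6 months.

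**Figure D1:**
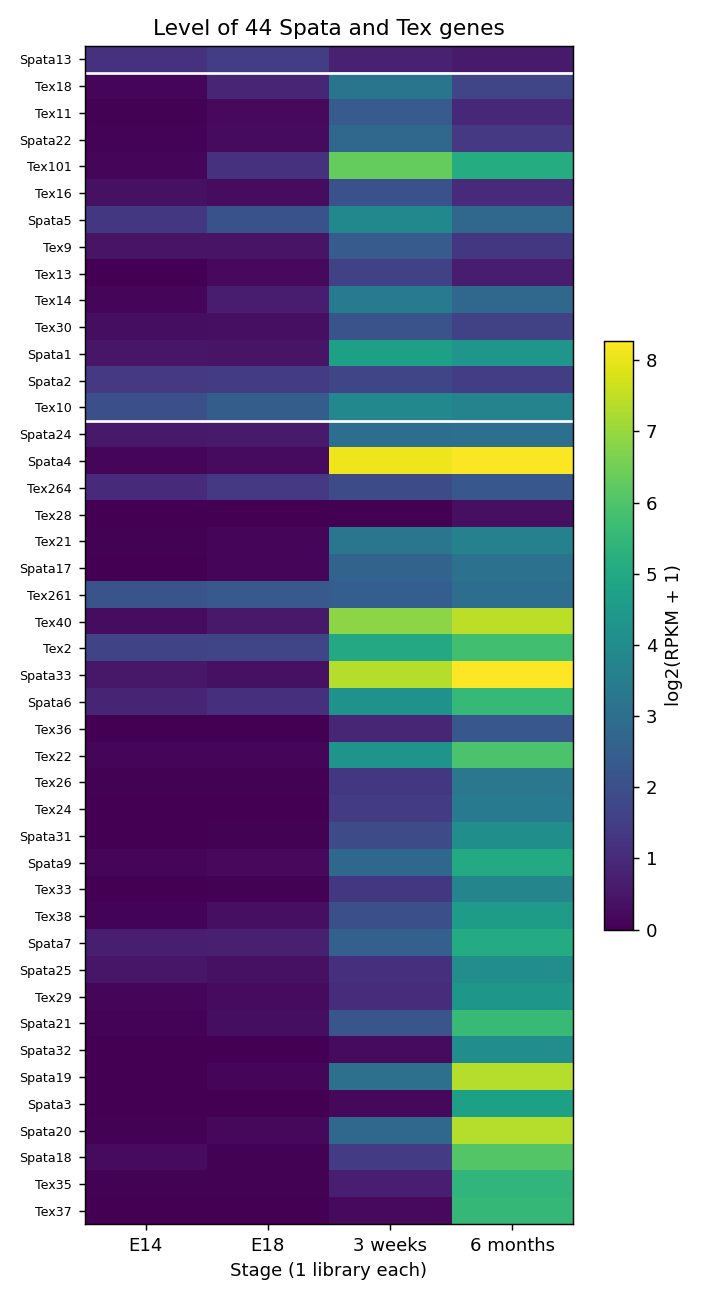
Level of the 44 Spata and Tex genes as log2(RPKM + 1), by gene (rows) and stage (columns, 1 library each). White lines part the genes by stage of highest level, with Spata13 above, 13 genes of 3 weeks in the middle and the genes of 6 months below, each block ordered by the difference between 6 months and 3 weeks. The columns of E14 and E18 are dark for nearly every gene.

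The assignment was close for some members. Spata24 had 7.10 RPKM at 6 months and 6.93 at 3 weeks, a ratio of 1.02 (95% counting interval 0.855 to 1.23). It moved to 3 weeks when libraries were rescaled to an equal sum or over protein-coding genes. Spata4 also moved to 3 weeks under the protein-coding scaling. Spata1, Spata2 and Tex10 moved to 6 months under the median of ratios, and Tex10 also under ribosomal protein scaling.

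A few members held a large part of the summed RPKM of the members after birth, as other members did before birth. Spata4, for which no role is given here, had 0.0730, 0.193, 268 and 298 RPKM from E14 to 6 months. Spata33, which in mouse sperm anchors the phosphatase calcineurin to mitochondria, had 0.447, 0.282, 161 and 309 RPKM. Tex40 had 0.197, 0.486, 113 and 176 RPKM. RefSeq lists Tex40 as an older name of both Catsperz, a subunit of the sperm calcium channel CatSper, and Kcnk4, so its identity is uncertain. These 3 genes made up 43.2% of the summed RPKM of the members at 6 months, against 63.2% at 3 weeks. At 6 months Spata19 and Spata20 joined them, and the 5 genes held 61.3%. In the fetal libraries the 3 highest members were other genes, and they held 44.7% at E14 and 40.6% at E18. The 5 highest held 60.7% and 55.1% there, so only the share at 3 weeks stood well above those before birth.

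Spata4 lies on chromosome 8 at 54600781 to 54610098, plus strand (GRCm38 coordinates of GENCODE vM21, which mm10 shares). Its 6 exon blocks total 1057 bases, which equals the model length recovered from the file. An antisense gene, 5330439A09Rik, shares 11.1% of these exon bases and stood at 26.9 RPKM at 6 months, against 22.9 at 3 weeks, and its part in the level of Spata4 was not tested. Spata33 lies on the same chromosome at 123212832 to 123222046, plus strand. Its recovered model of 518 bases is much shorter than the 4303 bases of exon annotated in GENCODE, so its RPKM rests on a short model.

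Between the fetal stages few members differed past the limit. At E18, 1 of 43 measured members was at least 2-fold higher than at E14 on the log2(RPKM + 1) scale, which is 2.33%, against 2.17% of all 42964 measured entries and 3.54% of protein-coding symbols. None was lower, against 1.34% and 1.63%. The median log2 difference of the members was 0.07 and that of all entries 0.03. The pseudocount of 1 understates the change of genes this low, and for 15 members the counting interval of the ratio left out 1.

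The member past the limit was Tex101, a glycosylphosphatidylinositol-anchored protein of the germ cell surface that sperm need to migrate into the oviduct. It had 1.27 RPKM (72 reads) at E18 and 0.109 RPKM (7 reads) at E14, a log2 difference of 1.04 and a ratio of 11.7 (5.39 to 30.1). The difference was 1.00, 0.99 and 0.70 under the equal sum, the median of ratios and ribosomal protein scaling, each under the limit before rounding. Tex18 (0.864 RPKM at E18 and 0.0869 at E14), Tex14 (0.559 and 0.108) and Tex11 (0.169 and 0.0284) also had ratios whose counting intervals lay above 1. Tex18, for which no role is given here, had 0.0869, 0.864, 8.27 and 2.31 RPKM from E14 to 6 months. Other members also had intervals above 1, such as Spata5 (ratio 2.12, 1.80 to 2.50) and Tex10 (1.44, 1.28 to 1.61). The interval of Spata18 lay below 1 (0.162, 0.0179 to 0.707). Of the fetal germ cell markers, 3 of 3 measured genes were higher at E18, and of the Sertoli cell markers 7 of 8 were. Leydig cell markers (5 of 5), smooth muscle markers (4 of 4), kidney markers (4 of 4) and bladder markers (4 of 4) were higher at E18 too, while 3 of 4 liver and 3 of 3 cartilage markers were lower. Whether these markers and the members moved for 1 reason was not tested.

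The members above 1 RPKM before birth were mainly those set here as broadly used. Of the 7 at E14, all belonged to that group of 8 genes, and the same 7 were above 1 RPKM at E18 beside Tex101 and Spata6. The group was set with earlier results of these data known, so this overlap is a description only. That group made up 75.4% of the summed RPKM of the members at E14 and 69.0% at E18, and 8.60% at 3 weeks and 6.52% at 6 months. Its members differed widely after birth.

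Spata2, an adaptor that links the deubiquitinase Cyld to the linear ubiquitin ligase complex, had 1.61, 1.74, 2.31 and 1.81 RPKM from E14 to 6 months. Tex261, a membrane protein of the early secretory pathway, had 3.42, 3.96, 4.54 and 6.99 RPKM. Tex264, a receptor for autophagy of the endoplasmic reticulum, had 1.01, 1.57, 2.81 and 3.71 RPKM. Together with Spata13 these were the 4 measured members that stayed inside the 2-fold limit on log2(RPKM + 1) in all 3 comparisons of adjacent stages.

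Spata13, a guanine nucleotide exchange factor also called Asef2, was the member with its highest level before birth. It had 1.25, 1.82, 0.712 and 0.503 RPKM from E14 to 6 months. Its level at 3 weeks was 0.392 times that at E18 (0.334 to 0.459), a log2(RPKM + 1) difference of -0.72. It was the single measured member with a lower level at 3 weeks than at E18. With a pseudocount of 0.1 it passed the 2-fold limit.

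The other 4 genes of the broad group were at least 2-fold higher at 3 weeks than at E18. Tex2, a lipid transfer protein of the endoplasmic reticulum, had 2.26, 2.33, 31.0 and 54.0 RPKM, with 445 reads at E18 and 10796 at 6 months. Spata7, a protein of the photoreceptor cilium whose loss causes retinal degeneration, had 0.626, 0.648, 4.82 and 33.2 RPKM. It was put in this group for its role outside the testis, and neither that role nor its levels, with 84.5% of the 4-stage sum at 6 months, are those of a broadly used gene. Spata5, an AAA ATPase of ribosome maturation, had 1.53, 3.23, 13.7 and 6.02 RPKM, and Tex10, a partner in ribosome assembly, had 3.07, 4.41, 13.6 and 12.0 RPKM. Between 6 months and 3 weeks Spata7 was higher and Spata5 lower past the limit.

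**Figure D2:**
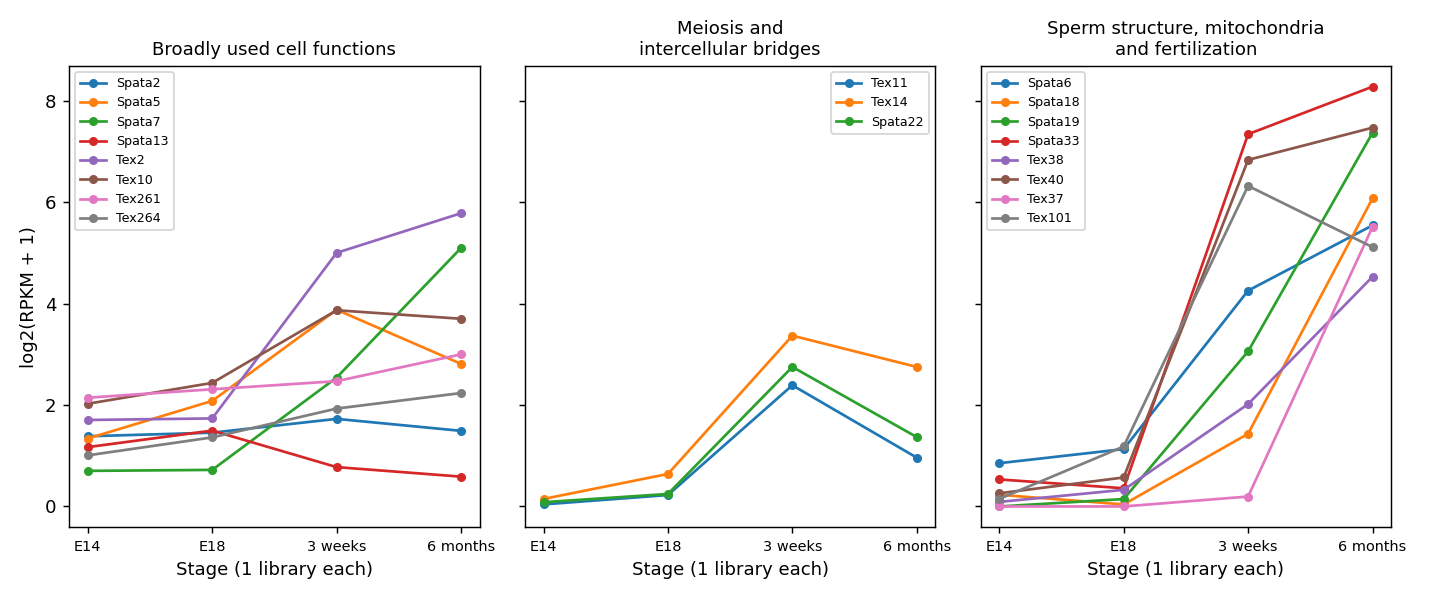
Level as log2(RPKM + 1) across the 4 stages (1 library each) for members grouped by known role, 1 line per gene. In the broad group Tex2 lies above the others at 3 weeks and 6 months, and Spata7 comes next to it only at 6 months. The meiotic genes are highest at 3 weeks, and the sperm genes other than Tex101 are highest at 6 months.

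Most members were higher at 3 weeks than at E18. Of 43 measured members, 32 were at least 2-fold higher (74.4%), against 32.0% of all entries and 24.1% of protein-coding symbols. None was lower, against 10.5% and 13.2%. The members' median log2 difference was 1.82, beside 0.46 for all entries and 0.23 for protein-coding symbols, and 6 members differed by at least 4 on that scale. The count of 32 fell to 18 at a limit of 4-fold and was 32 to 38 under the 4 rescalings. Of all entries, 16.1% were higher at 4-fold and 25.7% to 53.3% under the rescalings. Both the 38 and the 53.3% came from ribosomal protein scaling.

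The largest differences were those of Spata4 (7.82) and Spata33 (6.98), followed by Tex40 (6.26) and Tex101 (5.14). Tex101 had 78.9 RPKM at 3 weeks, against 1.27 at E18, and 33.6 RPKM at 6 months. Spata1, for which no role is given here, had 0.419, 0.348, 25.3 and 19.1 RPKM from E14 to 6 months, and its level at 3 weeks over that at E18 was a ratio of 72.7 (54.9 to 98.5). Tex22 had 0.101, 0.0920, 18.6 and 59.5 RPKM, and its log2 difference between 3 weeks and E18 was 4.16. Tex24 had 1.78 RPKM (107 reads) at 3 weeks and 0 reads at E18, which is at least 36.0-fold higher when 3 reads are set for the library at 0.

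Genes of meiosis and of the bridges that join germ cells were higher at 3 weeks in 3 of 3 cases, against 32.0% of all entries. Tex14, which keeps the intercellular bridges of germ cells open, had 0.108, 0.559, 9.32 and 5.73 RPKM from E14 to 6 months. Spata22, which acts with Meiob on single-stranded DNA in meiotic recombination, had 0.0596, 0.186, 5.73 and 1.58 RPKM. Tex11, an X-linked gene of meiotic synapsis and crossing over, had 0.0284, 0.169, 4.24 and 0.948 RPKM. All 3 were thus highest at 3 weeks, and Tex11 and Spata22 were at least 2-fold lower at 6 months. GENCODE annotates the gene Gm49340 on the same strand over 80.5% of the annotated exon bases of Spata22, so the level of Spata22 is uncertain. Those exons total 1274 bases against 3449 in the recovered model, so the part of that model that is shared is unknown.

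Of 11 measured members inside the limit on log2(RPKM + 1) between 3 weeks and E18, 7 were late genes that were still low at 3 weeks. Their RPKM itself often differed by more, with a ratio of 23.2 for Tex35 (3.77 to 955) and 5.90 for Tex29 (2.62 to 15.6), and for 10 of the 11 the interval left out 1. Spata3 had 0.130 RPKM (9 reads) at 3 weeks, Spata32 had 0.185 (7 reads) and Tex37 had 0.145 (4 reads). Tex35 had 0.627, Tex36 0.869, Tex29 1.09 and Spata25 1.16 RPKM. With a pseudocount of 0.1 the number of members higher at 3 weeks was 39, beside 45.7% of all entries.

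**Figure D3:**
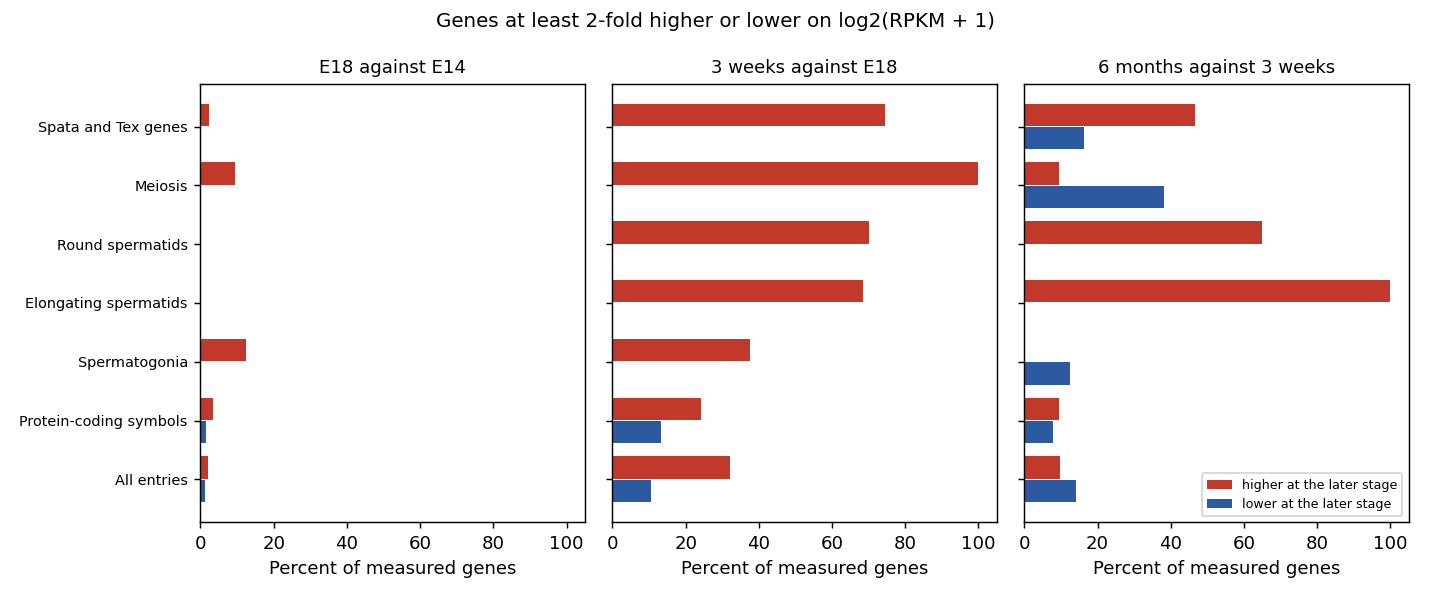
Percent of measured genes at least 2-fold higher (red) or lower (blue) at the later stage on log2(RPKM + 1), for the 43 Spata and Tex genes, 4 lists of other germ cell genes, protein-coding symbols and all entries. For Spata and Tex genes the bars are 2.33% higher at E18 against E14, 74.4% higher at 3 weeks against E18, and 46.5% higher and 16.3% lower at 6 months against 3 weeks.

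Between 3 weeks and 6 months more members were higher than lower. At 6 months, 20 of 43 were at least 2-fold higher (46.5%), against 9.73% of all entries and 9.54% of protein-coding symbols. A further 7 were lower (16.3%), against 14.1% and 7.87%. The share of higher members thus stood far above both of these shares. The share of lower members lay near that of all entries and above that of protein-coding symbols, and it depended on the scaling. The median log2 difference of the members was 0.78, against -0.31 for all entries and -0.22 for protein-coding symbols.

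Genes of sperm structure, sperm mitochondria and fertilization were among the increases. Spata19, a mitochondrial protein of the sperm midpiece, had 0, 0.106, 7.33 and 164 RPKM from E14 to 6 months. Spata18, a factor of mitochondrial quality control also called Mieap, had 0.173, 0.0281, 1.70 and 66.4 RPKM. Spata6, which is needed for the connecting piece that joins sperm head and tail, had 0.806, 1.19, 18.1 and 45.6 RPKM. The 6-month library held 95.7% of the 4-stage sum of Spata19 and 97.2% of that of Spata18, against 69.4% for Spata6.

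Tex37, a protein of the sperm flagellar microtubules, had the largest difference. It had 44.6 RPKM (1299 reads) at 6 months, against 0.145 RPKM (4 reads) at 3 weeks, a log2 difference of 5.32 and a ratio of 308 (120.0 to 1132). No read was found in the fetal libraries. Tex38 had 0.0641, 0.255, 3.05 and 22.1 RPKM. In this role group 5 of 8 genes were higher at 6 months, against 9.73% of all entries, and 1, Tex101, was lower, against 14.1%. Spata46 and Tex43, also set for this group, and Tex19, set for the meiotic group, had no entry under these names. The entries Tex19.1 and Tex19.2 are not members and were not counted in the meiotic group. Their log2 differences between 3 weeks and E18 were -0.05 and 0.87, both inside the limit.

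Of the 24 measured members outside the role groups, 14 were higher at 6 months, against 9.73% of all entries and 9.54% of protein-coding symbols. Spata20, a thioredoxin-like protein of spermatids, had 0.0358, 0.132, 5.79 and 163 RPKM from E14 to 6 months. Tex35 had 0.0238, 0.0271, 0.627 and 42.2 RPKM, and Spata3 had 0, 0.0143, 0.130 and 25.0 RPKM. All 3 were thus under 0.2 RPKM in both fetal libraries. Spata32 had 15.8 RPKM (628 reads) at 6 months and 0.185 (7 reads) at 3 weeks, a ratio of 85.1 (41.1 to 212). Spata21 (47.9 and 3.56 RPKM), Tex29 (20.0 and 1.09) and Spata25 (16.0 and 1.16) followed in log2 difference, at 3.42, 3.33 and 2.97. At 6 months 9 members held at least 90% of their 4-stage sum, from 92.6% for Spata21 to 99.7% for Tex37.

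The other 7 late genes had 0.869 to 18.6 RPKM at 3 weeks. Spata9 had 32.5 RPKM at 6 months, against 5.90 at 3 weeks, and Spata31 had 16.3, against 2.70. Tex33, a protein of ciliary microtubules, had 12.7 RPKM at 6 months, against 1.52 at 3 weeks. Tex24 (9.75 and 1.78 RPKM), Tex26 (8.73 and 1.53), Tex22 (59.5 and 18.6) and Tex36 (3.79 and 0.869) were the remaining genes past the limit. The ratios of these 7 genes lay between 3.20 for Tex22 and 8.39 for Tex33.

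**Figure D4:**
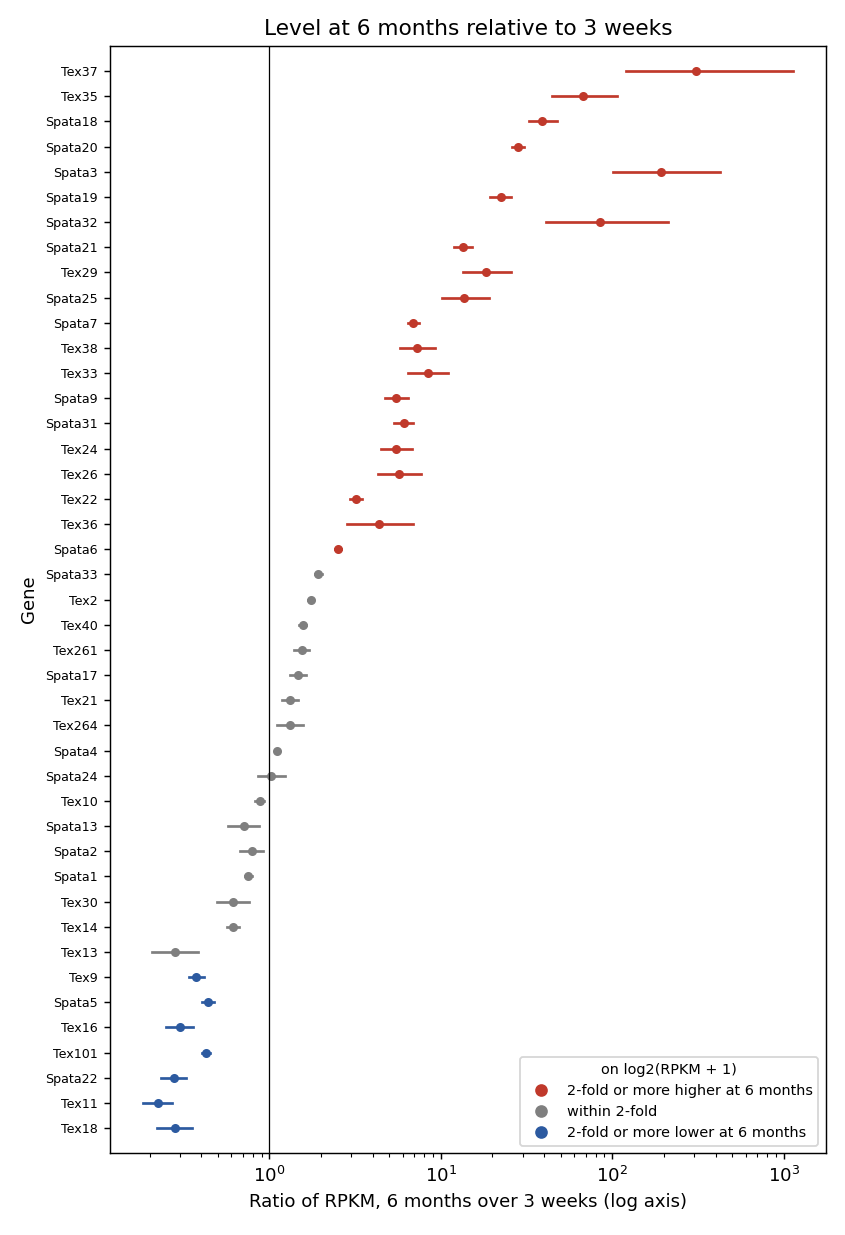
Ratio of RPKM at 6 months to that at 3 weeks (log axis) for the 43 measured members, with exact 95% counting intervals from recovered reads and ordered by the difference of log2(RPKM + 1). The 20 red genes lie between the ratios of 2.51 for Spata6 and 308 for Tex37, and the 7 blue genes between 0.223 for Tex11 and 0.439 for Spata5.

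The 7 members lower at 6 months had their highest level at 3 weeks. Epididymis markers had the same order, with 3 of 3 measured genes lower at 6 months and a sum of 0.0197 RPKM there, against 47.9 at 3 weeks, and 4 of 5 Leydig cell markers were higher at 6 months. Their part in these differences was not tested. Tex18 had 2.31 RPKM at 6 months, against 8.27 at 3 weeks, a log2 difference of -1.48. Tex11 had 0.948 RPKM at 6 months, against 4.24 at 3 weeks, and Spata22 had 1.58, against 5.73, with log2 differences of -1.43 and -1.38. Tex101 (-1.21), Tex16 (-1.11), Spata5 (-1.07) and Tex9 (-1.01) lay closer to the limit. Just inside it were Tex13, at 0.569 RPKM at 6 months and 2.01 at 3 weeks (-0.94), and Tex14, at -0.62. On the other side Spata33 (0.94) and Tex2 (0.78) missed the limit, with Spata33 at 309 RPKM, against 161.

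The number of lower members depended on how libraries were scaled. It was 0 under the median of ratios, where the largest decrease was that of Tex11 (-0.97), and 4 under ribosomal protein scaling, where Tex101, Spata5 and Tex9 were within the limit. The higher members numbered 20 to 25 under the 4 rescalings, beside 7.37% to 17.7% of all entries. Of all entries, 4.40% were lower under the median of ratios and 10.5% under ribosomal protein scaling. The median of ratios moved the median of all entries in this comparison by 0.38, so a lower level of these genes is relative to the deposited scale. Of all entries past the limit, 40.8% were higher at 6 months as deposited, 80.1% under the median of ratios, 58.6% under ribosomal protein scaling and 29.5% under the protein-coding scaling. For 42 of the 43 members the interval of the ratio left out 1, the exception being Spata24.

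Other germ cell genes gave a frame for these directions. At 6 months, 19 of 19 measured genes of elongating spermatids were higher than at 3 weeks (median 5.45), and 13 of 20 genes of round spermatids (median 2.14). Of 21 measured meiotic genes, 8 were lower and 2 higher (median -0.74), and of 8 spermatogonial genes 1 was lower. The members' median of 0.78 lay between those of the meiotic and round spermatid lists. Elongating spermatid genes summed to 7824 RPKM at 6 months and 62.2 at 3 weeks, and the members' own sums were 1812 and 856.

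The same lists at 3 weeks against E18 had 21 of 21 meiotic genes higher (median 4.07), 14 of 20 round spermatid genes (median 2.04) and 13 of 19 elongating spermatid genes (median 1.54). Spermatogonial genes were higher in 3 of 8 cases. The members, with a median of 1.82, lay between the lists of round and of elongating spermatids.

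Of the members, 4 lie on the X chromosome, which is silenced during male meiosis. Tex11, Tex13 and Tex16 were highest at 3 weeks, at 4.24, 2.01 and 3.23 RPKM, and each was under 1 RPKM at 6 months. Tex28 was seen with 14 reads at 6 months and 1 read at 3 weeks. Apart from Spata13, the members under 1 RPKM at 6 months were these 4. The levels of X-linked genes as a whole were not computed, and a part of silencing in these levels was not tested. RefSeq gives Tex13 as an older name of Tex13b (X chromosome, 140808307 to 140813433, minus strand), and the recovered model of 2800 bases equals the exons of that gene.

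Some members may share reads with other annotated genes. Exons of Tex9 overlap those of Mns1 on the opposite strand over 32.3% of their length, and those of Spata25 overlap Zswim1 over 21.5%. Mns1 had 3.31 RPKM at 6 months, against 11.5 at 3 weeks, and Tex9 had 1.56 RPKM, against 4.15, and the part of Mns1 in the level of Tex9 was not tested. The deposited tables also list 7 members under an older name. Those entries had the same stage of highest level in 7 of 7 cases, with 45.0 RPKM at 6 months for 1700011F03Rik beside 44.6 for Tex37, and 26.6 for 1700018L24Rik beside 20.0 for Tex29. They name the same genes, so they are no second measurement.

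Promoters of the members differed in CpG content with the stage of highest level. In mammals, promoters of broadly used genes are often rich in CpG dinucleotides, while many tissue-specific promoters are poor in them. RefSeq windows of 300 bases (250 before the start and 50 after it, GRCm38.p6) were at hand for 38 members, and the most upstream start was used. The number of CpG observed over that expected from the C and G content was 0.238 in the median for 25 members highest at 6 months and 0.737 for 11 members highest at 3 weeks. Over 17491 protein-coding genes the median was 0.577, and for the 8 genes set as broadly used, Spata7 included, it was 0.844. These are descriptions over genes, with no test.

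Of 18 members at least 2-fold higher at 6 months than at 3 weeks, 14 had a value under 0.5, which is 77.8%, beside 44.9% of protein-coding genes. Of 11 highest at 3 weeks, 1 did, Tex16. The limit of 0.5 was set after the values were seen. Exceptions on the high side were Spata18 (0.851), Tex26 (0.706), Spata7 (0.645) and Spata6 (0.625). The windows of 32 members lay within 500 bases of the GENCODE start of the gene. Among those, the counts were 11 of 15 and 0 of 9, and the medians were 0.401 for 22 members highest at 6 months and 0.849 for 9 highest at 3 weeks.

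**Figure D5:**
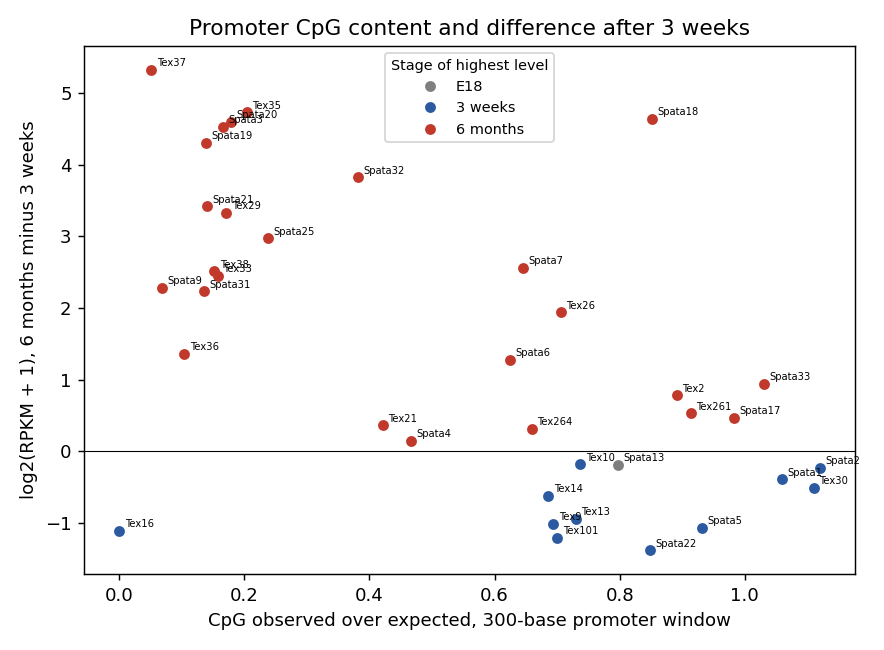
CpG observed over expected in the 300-base promoter window (horizontal axis) and difference of log2(RPKM + 1), 6 months minus 3 weeks (vertical axis), 1 point per measured member with a window, coloured by stage of highest level. Red points at the upper left are late genes with few CpG, such as Tex37 at 0.0515 and 5.32, and Spata18 stands apart at 0.851 and 4.64.

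The 150 bases before the start are shown for the 4 members with the largest and the 4 with the smallest difference between 6 months and 3 weeks among those with a window, since they show the range of CpG at both ends of that order, exceptions included. They are RefSeq sequences of GRCm38.p6, each runs 5′ to 3′ on the strand of the gene, and capitals mark every CG. The first 4 are late genes.
Tex37 (chr6:70918923-70919072, minus strand): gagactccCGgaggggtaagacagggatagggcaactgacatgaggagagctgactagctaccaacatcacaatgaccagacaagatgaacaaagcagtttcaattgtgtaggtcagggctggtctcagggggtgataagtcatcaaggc
Tex35 (chr1:157108681-157108830, minus strand): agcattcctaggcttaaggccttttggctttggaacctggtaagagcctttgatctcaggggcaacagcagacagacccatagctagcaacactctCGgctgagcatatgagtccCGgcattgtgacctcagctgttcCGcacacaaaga
Spata18 (chr5:73651230-73651379, plus strand): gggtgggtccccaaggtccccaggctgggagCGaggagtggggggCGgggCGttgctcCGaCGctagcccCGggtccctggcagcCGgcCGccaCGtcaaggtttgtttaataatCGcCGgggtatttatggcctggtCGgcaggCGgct
Spata20 (chr11:94485311-94485460, minus strand): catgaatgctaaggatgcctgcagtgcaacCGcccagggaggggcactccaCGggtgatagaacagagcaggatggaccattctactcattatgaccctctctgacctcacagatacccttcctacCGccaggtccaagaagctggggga

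Tex18 and Tex11, which had no window, and Tex9 were also lower at 6 months past the limit and are not shown. The next 4 are the members with the smallest difference among those with a window, each lower at 6 months.
Spata22 (chr11:73329591-73329740, plus strand): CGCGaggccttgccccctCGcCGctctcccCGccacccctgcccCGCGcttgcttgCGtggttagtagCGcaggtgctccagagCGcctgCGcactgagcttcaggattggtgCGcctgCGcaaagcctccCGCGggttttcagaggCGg
Tex101 (chr7:24672051-24672200, minus strand): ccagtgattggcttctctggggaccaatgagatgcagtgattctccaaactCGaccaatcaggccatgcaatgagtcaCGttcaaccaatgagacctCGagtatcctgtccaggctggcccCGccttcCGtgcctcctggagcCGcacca
Tex16 (chrX:112093370-112093519, plus strand): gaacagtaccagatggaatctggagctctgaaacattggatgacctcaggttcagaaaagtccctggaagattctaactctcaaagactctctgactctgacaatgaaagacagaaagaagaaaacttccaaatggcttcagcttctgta
Spata5 (chr3:37419800-37419949, plus strand): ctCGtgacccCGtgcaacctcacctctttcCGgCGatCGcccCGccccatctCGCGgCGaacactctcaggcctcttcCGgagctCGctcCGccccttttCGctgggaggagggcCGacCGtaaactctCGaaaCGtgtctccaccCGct

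In these 150 bases Tex37 has 1 CG, Tex35 and Spata20 have 3 each, and Spata18 has 13. Spata5 and Spata22 have 18 and 16, Tex101 has 6 and Tex16 none, so Spata18 and Tex16 go against the order of the others. The RefSeq starts used for Tex16, Tex101 and Spata20 lie 82513, 4625 and 869 bases from the GENCODE start of the gene, and which start was used in these libraries is unknown.

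Short motifs of factors active in germ cells were searched on both strands of the 300-base windows. GTTGCC, the core of the X-box bound by RFX factors, was found in 6 of 25 members highest at 6 months (24.0%) and in 1 of 11 highest at 3 weeks, beside 12.7% of all 27025 windows. TGACG, the core of the cyclic AMP response element bound by CREM, was found in 5 of 25 and 4 of 11, beside 20.9% of all windows, and it also lies inside the full element. The full element TGACGTCA was found in 1 member, Spata7, and in 1.85% of all windows. TATAAA was found in 3 of 38 members, beside 14.2% of all windows. AACNG, the core bound by MYB factors, was found in 33 of 38 members, beside 80.4% of all windows. A match is a description of the letters only.

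The remaining members can be placed by level. Among those highest at 6 months, Spata17, an IQ-motif protein, had 0.0179, 0.0713, 5.23 and 7.66 RPKM from E14 to 6 months. Tex21 had 0.0229, 0.0912, 8.61 and 11.4 RPKM, and Spata24 had 0.487, 0.524, 6.93 and 7.10 RPKM. Among those highest at 3 weeks, Tex30 had 0.240, 0.258, 3.39 and 2.09 RPKM, and Tex16 had 0.283, 0.217, 3.23 and 0.968. Tex9 had 0.354, 0.343, 4.15 and 1.56 RPKM. All 6 were under 1 RPKM in both fetal libraries.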

How the data were processed

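RNA sequencing of 4 mouse testis libraries (E14, E18, 3 weeks and 6 months, 1 each) was analysed. The authors deposited RPKM for 112302 entries per library, per the file headers. Per the submitters' processing notes, reads were handled with TopHat2 and mm10. Which counter and gene models were used, and how strand and shared reads were treated, is not given in the sources used here.

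The denominator of RPKM was the most frequent depth at which the RPKM of a single-exon GENCODE vM21 gene equals 1 read. For each member, the shortest model (up to 200000 bases) giving whole reads in all 4 libraries was kept (tolerance 1e-09). Its length equalled the exons annotated in GENCODE for 22 of the 44 members. Overlaps with other genes were computed on the GENCODE exons. Poisson and Clopper-Pearson intervals, at 95%, and floors of 3 reads cover counting error only. Differences are log2(RPKM + 1), later minus earlier stage, over the 42964 entries that reached 1 RPKM in any library, and called at 1 or more in size. The procedure was tested on simulated data (Python 3.11.15, numpy 2.4.6, pandas 2.3.3, scipy 1.17.1).

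The members and the lists of roles, pathways and markers were chosen with earlier results of these data known. Genes named are the members of 3 role groups, the 8 highest at each stage, the 6 largest differences in each direction, the genes highest before birth, and those nearest to the limit. The other members were added so that each is accounted for. By symbol, 41 members matched RefSeq, Tex13 matched an older name of 1 gene and Tex40 of 2 genes, and Tex18 matched none. Alternatives were another pseudocount, filter and limit, and 4 rescalings, to an equal sum of RPKM, by median ratios, over ribosomal protein genes and over protein-coding genes.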

Additional observations from a re-analysis of the deposited data

How the results depend on the processing

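The 32 members higher at 3 weeks than at E18 became 18 at a limit of 4-fold, and 1 was lower with a pseudocount of 0.1, Spata13. Of all entries, 17.9% were lower with that pseudocount. At E18 against E14, 9 members were higher and 1 lower with a pseudocount of 0.1, beside 7.46% and 4.12% of all entries. In that comparison 0 were higher at 4-fold, under the equal sum, the median of ratios and ribosomal protein scaling. The 7 members lower at 6 months became 4 with a minimum of 5 RPKM, 0 at 4-fold, 0 under the median of ratios and 4 under ribosomal protein scaling. In that order, 23.9%, 1.80%, 4.40% and 10.5% of all tested entries were lower. The minimum of 5 RPKM left 34 members, 7 of them highest at 3 weeks and 0 at E18. Fewer genes tested accounts for the filter, and the cause of the other shifts was not tested. The rescalings moved the median of all entries by up to 0.71 at 3 weeks against E18, under ribosomal protein scaling. Of 129 differences of single members, 117 moved by less than their counting interval under the equal sum and 102 under the protein-coding scaling. Under the median of ratios and under ribosomal protein scaling 86 did, and with a pseudocount of 0.1 79 did. Differences from 0 reads at the earlier stage are counted among these whatever their move. With that pseudocount Tex24, for example, went from 1.48 to 4.24 at 3 weeks against E18. No difference past the limit changed sign under the 5 alternatives computed for single members. No paired analysis was possible because each stage has 1 library, and no replicate could be left out. At 3 weeks the members Spata3, Spata32, Tex37 and Tex28 rest on 9, 7, 4 and 1 reads.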

Other observations

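Genes with related names that carry more than a number after Spata or Tex were not members. Tex19.1, which helps to repress transposable elements in mouse germ cells, had 0.0549 RPKM (4 reads) at E14, 3.78 (242 reads) at E18, 3.60 at 3 weeks and 1.88 at 6 months, and Tex19.2 had 0.0126, 1.91, 4.32 and 6.20 RPKM. At E18 the level of Tex19.1 lay below those of Tex10 (4.41 RPKM) and Tex261 (3.96) and above those of the other members, and Tex19.2 lay also below Spata5 (3.23) and Tex2 (2.33). Tex13a had 0, 0, 0.895 and 13.9 RPKM, while Tex13, matched to Tex13b, had 0.0184, 0.157, 2.01 and 0.569 RPKM.

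Of the Spata31 relatives, Spata31d1a had 0.00601, 0.0273, 0.902 and 6.86 RPKM from E14 to 6 months, Spata31d1b 0.00600, 0.0136, 0.165 and 20.7, Spata31d1c 0, 0, 0.0261 and 13.6, and Spata31d1d 0.00672, 0.0153, 0.285 and 4.61. All 4 were highest at 6 months, as Spata31 was, and sharing of reads between these similar copies is uncertain. Spata2l had 0.268, 0.359, 0.296 and 1.41 RPKM, and Spata5l1, at 0.565, 0.642, 0.419 and 0.199 RPKM, was highest at E18 where Spata5 was highest at 3 weeks.

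Tex11, Tex13, Tex14, Tex16 and Tex18 belong to a set of genes first described in mouse spermatogonia. These 5 were all highest at 3 weeks, at 2.01 to 9.32 RPKM, and 3 of them (Tex11, Tex16 and Tex18) were at least 2-fold lower at 6 months on log2(RPKM + 1). The ratio of RPKM at 6 months to that at 3 weeks was 0.223 to 0.299 for these 3 and Tex13, and 0.615 for Tex14. They were put together after their values were seen, and other genes of that set are not counted here. Their shared stage is thus no separate result.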
